A study of Mus musculus with 24 samples.

Results

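The comparison described here set the non-endothelial (non-EC) liver cells of Brg1/Chd4-ECdko embryos against those of Brg1-ECko embryos, in 6 of the 24 RNA-seq libraries of the series. Members were chosen by label alone, as the 3 double-mutant and the 3 Brg1-ECko libraries of the non-EC fraction, and every gene that reached 1 TPM in at least 3 of the 12 non-EC libraries was tested, which left 12223 of 25361 genes. Brg1-ECko embryos carried Brg1fl/fl, Chd4fl/+ and VE-cadherin-Cre, Brg1/Chd4-ECdko embryos carried Brg1fl/fl, Chd4fl/fl and VE-cadherin-Cre, and all were collected at embryonic day 12.5. The pair therefore asked what loss of the remaining endothelial Chd4 allele was accompanied by in neighbouring liver cells when endothelial Brg1 was already absent. The other non-EC libraries were Chd4-ECko (Chd4fl/fl, Brg1fl/+, VE-cadherin-Cre) and Cre-negative controls with at least 1 floxed allele of both genes, 3 libraries each. VE-cadherin-Cre deletes floxed exons in endothelial cells and in blood cells that descend from them, so part of the non-EC fraction can itself be deleted. By the study's description the libraries of a genotype, in non-EC cells as in LSECs (liver sinusoidal endothelial cells), come from 3 separate embryos, so p-values measure the spread between embryos.

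BRG1, encoded by Smarca4, is the ATPase of SWI/SNF complexes, which slide and evict nucleosomes and usually open chromatin. CHD4 is the ATPase of the NuRD complex, which joins nucleosome remodelling to histone deacetylation and is best known for keeping genes of other lineages silent. The midgestation liver holds hepatoblasts, which secrete lipoproteins and plasma proteins, and a large population of maturing red cells with their progenitors and macrophages, all of it arranged around the sinusoids whose endothelial cells carried the mutations.

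The fraction matched its label. The 14 endothelial markers summed to 83.2 to 103 TPM in Brg1/Chd4-ECdko and to 82.4 to 121 TPM in Brg1-ECko, against 1169 to 2100 TPM in the 6 LSEC libraries of the same genotypes, and 9 of the 14 reached the testing threshold. Chd4 and Smarca4 did not separate the groups. Chd4 was at 377, 362 and 379 TPM in Brg1/Chd4-ECdko and at 406, 353 and 375 TPM in Brg1-ECko, and Smarca4 at 169, 162 and 163 TPM against 189, 165 and 171 TPM. Both values count whole transcripts, those lacking the floxed exons included. Transcripts of the 13 mitochondrial genes took 6.43% to 6.65% of TPM in Brg1/Chd4-ECdko and 3.04% to 5.51% in Brg1-ECko, with the lowest share in Brg1-ECko replicate 2. Y-linked transcripts (Eif2s3y at 10 TPM or more) were present in 1 of 3 libraries in each of these groups, but in 3 of 3 control and 2 of 3 Chd4-ECko libraries, so sex was even within the main pair and not across all 4 genotypes.

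No gene passed an adjusted p of 0.05 by limma, a linear model with moderated variances fitted to log2(TPM + 1) over all 12 non-EC libraries. At an unadjusted p under 0.05 there were 1558 genes, or 12.7% of those tested, of which 688 (5.63%) were higher and 870 (7.12%) lower in Brg1/Chd4-ECdko. The balance of directions depended on the libraries fitted. With only the 6 libraries in the model 1677 genes were higher and 1262 lower, without the 3 libraries under 4% mitochondrial TPM 1248 and 1150, and without Brg1/Chd4-ECdko replicate 2 the total fell to 754, of which 263 were higher and 491 lower. Over all tested genes the log2 fold changes had a median of 0.01. With libraries weighted by their own spread, 51 genes passed an adjusted p of 0.05 with more than a 2-fold difference, 30 higher and 21 lower, and 2742 passed without the fold limit. Those weights did not converge, giving 1 Chd4-ECko library a weight of 902, and a gene-by-gene estimate of the weights, added after the data were seen, called 36 genes. Every fold change of this pair below is therefore a value, given with its standard error for the main genes, and no single gene in it is called as changed. In these bulk libraries fewer cells of a type and less RNA per cell cannot be told apart.

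The gene nearest to the threshold was Tnnt2, cardiac troponin T, part of the calcium switch of the thin filament in heart muscle. It was at 10.1, 24.5 and 13.6 TPM in Brg1/Chd4-ECdko and at 0.885, 1.96 and 1.24 TPM in Brg1-ECko. The groups did not overlap, and the lowest double-mutant library stood above every non-EC control and Chd4-ECko library (1.04 to 5.45 TPM). The log2 fold change was 2.79 (s.e. 0.35, 95% interval 2.03 to 3.55, adjusted p = 0.0643). Leaving out 1 of the 6 libraries at a time or changing another setting kept the sign in every setting run. The log2 fold changes were 2.45 to 3.43 and the adjusted p 0.000860 to 0.528. The lowest adjusted p came with the library weights that did not converge. Between Brg1/Chd4-ECdko and control, which reuses the same double-mutant libraries, Tnnt2 differed by 2.84 (adjusted p = 0.028).

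**Figure D1:**
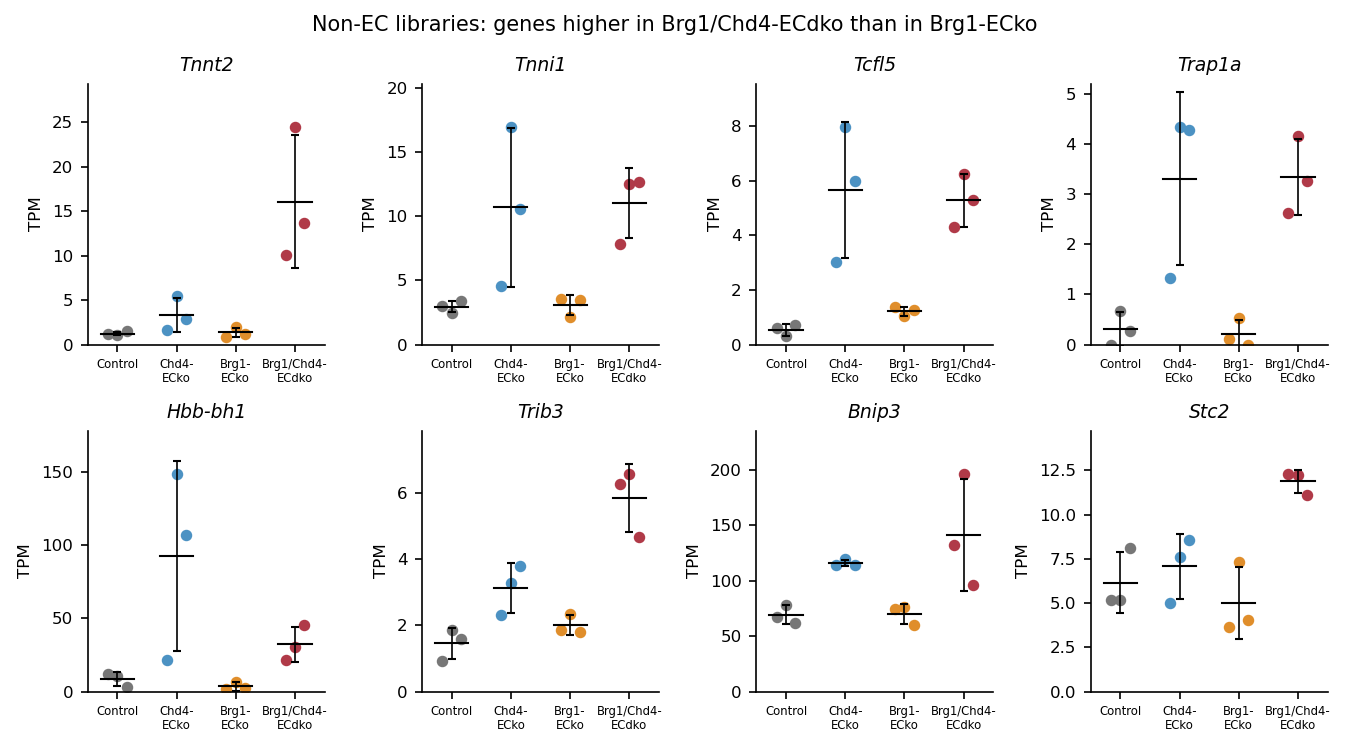
Transcript level (TPM, linear axes from 0) of 8 genes in the 12 non-EC libraries. Each point is 1 library, the horizontal bar is the mean of 3 and the error bar is s.d. In all 8 genes the 3 Brg1/Chd4-ECdko points lie above the 3 Brg1-ECko points. In every gene shown except Stc2 the Chd4-ECko points also lie above the control points.

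Because Tnnt2 led, the 8 troponin genes were then read as a family, chosen after the values were seen and so given without a test of the family. Tnni1, slow skeletal troponin I, was at 7.87, 12.5 and 12.7 TPM in Brg1/Chd4-ECdko and at 3.56, 2.16 and 3.48 TPM in Brg1-ECko (log2 fold change 1.56, s.e. 0.35, adjusted p = 0.236). Tnni3, cardiac troponin I, was at 7.19, 14.5 and 10.7 TPM against 3.01, 3.33 and 3.27 TPM (1.44, s.e. 0.43, adjusted p = 0.297). Both groups were separated for these 2 genes as for Tnnt2. Tnnc1, the calcium-binding troponin C of slow and cardiac muscle, lay the other way, at 19.7, 22.8 and 15.3 TPM against 40.3, 35.3 and 38.8 TPM (-0.96, s.e. 0.17, adjusted p = 0.216). Tnnt1 and Tnni2 overlapped between the groups (0.23 and -0.09), and Tnnt3 and Tnnc2 stayed under 1 TPM in all 6 libraries. Among the other non-EC libraries control replicate 1 stood apart for the fast skeletal troponins, with Tnnt3 at 28.6, Tnnc2 at 23.03 and Tnni2 at 23.1 TPM against at most 0.823, 0.458 and 3.71 TPM in the other controls, while its Tnnt2 (1.22 TPM) and Tnni1 (3.01 TPM) lay between theirs.

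Other heart muscle genes were read beside them. The cardiac myosin heavy chains Myh6 and Myh7 did not exceed 0.0283 and 0.0920 TPM in any of the 6 libraries, the natriuretic peptide Nppa was listed at 0 in all of them, and titin (Ttn), sarcomeric actinin (Actn2) and the ryanodine receptor Ryr2 stayed under 0.4 TPM. Actc1, cardiac actin, was at 2.74, 12.1 and 7.57 TPM in Brg1/Chd4-ECdko and at 1.03, 5.21 and 3.13 TPM in Brg1-ECko, which overlapped. The atrial light chain Myl7 (0 to 3.25 TPM over the 6 libraries) and desmin, Des (1.72 to 3.20 TPM), were also detected and overlapped, with log2 fold changes of 0.01 and -0.21. TPM give no depth per gene, so the counting error of these low values is unknown.

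Tnni1 and Tnnt2 are neighbours. In GRCm39 Tnni1 occupies chromosome 1, 135707172 to 135738727, and Tnnt2 135763738 to 135780315, both on the plus strand, with 25.01 kb between them. Lad1 lies in that gap and was at 0 to 0.345 TPM in the 6 libraries, and Pkp1, on the far side of Tnnt2, was at 0 to 0.0316 TPM. The 4 other tested protein-coding genes within 200 kb had log2 fold changes below 0, each with an unadjusted p above 0.05: Nav1 stood at -0.17, Csrp1 at -0.10, Tmem9 at -0.13 and Phlda3 at -0.54, the last without overlap between the groups. The promoters of the 2 troponin genes are shown because they are close and read the same way. They come from RefSeq on GRCm38.p6, plus strand, 250 bases before to 50 after the start (chr1:135836084-135836383 for Tnnt2 and chr1:135799171-135799470 for Tnni1), and each gene has a further start in that table that is not shown. Capitals mark AGATAA, which GATA factors bind, and CATTCC, a motif of muscle gene promoters, both searched on both strands.
Tnnt2: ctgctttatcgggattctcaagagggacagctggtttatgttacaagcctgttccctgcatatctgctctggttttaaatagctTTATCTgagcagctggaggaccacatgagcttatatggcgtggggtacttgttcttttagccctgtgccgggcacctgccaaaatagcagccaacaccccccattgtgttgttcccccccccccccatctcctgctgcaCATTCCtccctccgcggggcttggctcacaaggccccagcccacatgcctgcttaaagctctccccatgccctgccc
Tnni1: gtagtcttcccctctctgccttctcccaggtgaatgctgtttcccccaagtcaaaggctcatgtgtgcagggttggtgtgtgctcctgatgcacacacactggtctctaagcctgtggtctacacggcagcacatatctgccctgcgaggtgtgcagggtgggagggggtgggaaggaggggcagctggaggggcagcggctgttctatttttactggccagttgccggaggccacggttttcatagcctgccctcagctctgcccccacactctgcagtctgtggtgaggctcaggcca
The Tnnt2 window held AGATAA once, on the other strand 166 bases before the start, and CATTCC once, 27 bases before it. The Tnni1 window held neither. AGATAA occurs in 11.2% and CATTCC in 14.7% of the 32851 RefSeq promoter windows of this length.

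Tcfl5 and Trap1a, the next largest of the genes that led the ranking, are best known from germ cells and tumours. Tcfl5, a basic helix-loop-helix factor of spermatogenesis, was at 4.31, 6.24 and 5.30 TPM in Brg1/Chd4-ECdko and at 1.37, 1.03 and 1.26 TPM in Brg1-ECko (log2 fold change 1.49, s.e. 0.26, adjusted p = 0.216). Trap1a, the tumour antigen P1A, was at 2.63, 4.15 and 3.26 TPM against 0.117, 0.521 and 0 TPM (1.85, s.e. 0.32, adjusted p = 0.216). Neither gene overlapped between the groups. Trap1a was low wherever endothelial Chd4 had a functional allele, with 0 to 0.680 TPM in the controls and 0 to 0.521 TPM in Brg1-ECko, and read 1.32 to 4.34 TPM in the 6 libraries of the 2 genotypes without one.

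Their promoters are printed because one is rich in CG dinucleotides, set in capitals, and the other is near the median; the windows are chr2:180642642-180642941 (minus strand) for Tcfl5 and chrX:139333433-139333732 (plus strand) for Trap1a, again RefSeq on GRCm38.p6.
Tcfl5: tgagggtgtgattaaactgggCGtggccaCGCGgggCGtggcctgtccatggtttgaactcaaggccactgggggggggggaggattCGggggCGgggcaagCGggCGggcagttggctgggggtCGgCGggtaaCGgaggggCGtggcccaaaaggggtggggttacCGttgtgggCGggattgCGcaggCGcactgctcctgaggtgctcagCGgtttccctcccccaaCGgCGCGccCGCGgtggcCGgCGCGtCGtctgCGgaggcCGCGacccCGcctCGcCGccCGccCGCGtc
Trap1a: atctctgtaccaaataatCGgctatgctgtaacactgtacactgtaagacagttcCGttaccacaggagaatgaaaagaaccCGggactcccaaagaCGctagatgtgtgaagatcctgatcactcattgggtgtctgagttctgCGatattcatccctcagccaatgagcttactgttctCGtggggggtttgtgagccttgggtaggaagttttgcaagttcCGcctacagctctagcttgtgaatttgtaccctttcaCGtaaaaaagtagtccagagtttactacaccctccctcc
The Tcfl5 window held 35 CG dinucleotides and that of Trap1a held 8, with a median of 7 over all 32851 windows and 6.95% of windows at 35 or more.

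A second pair that differed in endothelial Chd4 was Chd4-ECko and control. It differed in more than the first: Chd4-ECko lost both Chd4 alleles and 1 Brg1 allele and carried Cre, which the controls lacked, whereas Brg1/Chd4-ECdko and Brg1-ECko both carried Cre and differed in the second Chd4 allele. Cre, the single Brg1 allele, the number of Chd4 alleles lost and the Brg1 background cannot be told apart in what follows. It shares no library with the comparison of Brg1/Chd4-ECdko and Brg1-ECko. In the non-EC cells 1159 genes (9.48%) passed an adjusted p of 0.05 there, 754 higher (6.17%) and 405 lower (3.31%) in Chd4-ECko. These counts moved with single libraries. Those higher ran from 300 (without control replicate 2) to 1892 (without Chd4-ECko replicate 1) and those lower from 32 (without control replicate 1) to 2700 (without Chd4-ECko replicate 1). They were 357 and 21 with the Y-linked gene Eif2s3y as a covariate and 245 and 11 without the 3 libraries under 4% mitochondrial TPM. Genes higher in Chd4-ECko tended to be lower in Brg1/Chd4-ECdko than in Brg1-ECko. Of the 754, 365 (48.4%) were lower at an unadjusted p under 0.05 and 11 (1.46%) higher. Of the 405 genes lower in Chd4-ECko, 218 (53.8%) were higher and 2 (0.494%) lower. With 1 library left out these shares ran from 29.9% to 65.3% (lowest without Brg1-ECko replicate 1) and from 34.8% to 89.4% (lowest without Brg1-ECko replicate 2), the latter of 32 to 2700 genes. With the Eif2s3y covariate they were 199 of 357 (55.7%) and 12 of 21 (57.1%). Those 365 genes were 42.0% of all genes lower in Brg1/Chd4-ECdko at that threshold, and the 218 were 31.7% of all that were higher. Across the 12223 genes the log2 fold changes of the 2 pairs had a Pearson r of -0.66 and a Spearman rho of -0.72, as a description, since genes are not independent replicates. Without the 3 non-EC libraries under 4% mitochondrial TPM (Brg1-ECko replicate 2 and Chd4-ECko replicates 2 and 3), which left 1 Chd4-ECko library, the r was -0.45, 187 of 245 genes (76.3%) higher in Chd4-ECko were lower in the first pair, and 4 of 11 lower ones were higher.

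The difference between the 2 pairs was tested directly. By limma, 2470 genes (20.2%) passed an adjusted p of 0.05 for it, 1263 (10.3%) above and 1207 (9.87%) below 0, and 934 (7.64%) also exceeded a difference of 1 on the log2 scale. That count of 934 ran from 374 without Brg1/Chd4-ECdko replicate 2 to 2040 without Chd4-ECko replicate 1, whose mitochondrial share was 7.37% against 3.43% and 2.33% in the other Chd4-ECko libraries. The count of 2470 ran from 852 to 5204 without the same 2 libraries. The balance of signs also moved. Over 2-fold, 536 genes were above and 398 below 0, against 53 and 566 without the 3 libraries under 4% mitochondrial TPM and 138 and 390 with the Eif2s3y covariate.

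**Figure D2:**
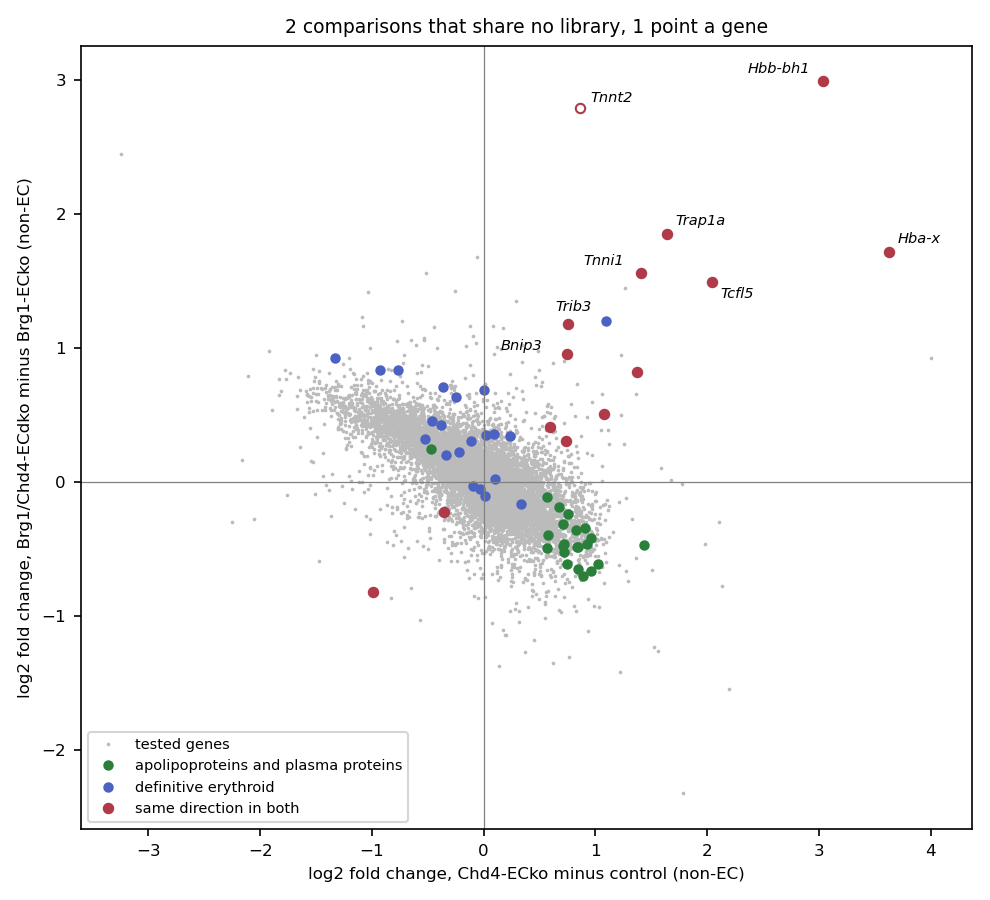
Each point is 1 of 12223 genes, placed by its log2 fold change in non-EC cells between Chd4-ECko and control (x axis) and between Brg1/Chd4-ECdko and Brg1-ECko (y axis). Most genes run from upper left to lower right (Pearson r -0.66); red points are the 13 genes that lay the same way in both, the open red point is Tnnt2, green points are apolipoprotein and plasma protein genes and blue points definitive erythroid genes.

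The 11 genes that were higher in both pairs are the exceptions to that opposition, at an adjusted p under 0.05 in Chd4-ECko against control and an unadjusted p under 0.05 in Brg1/Chd4-ECdko against Brg1-ECko. They were named from this count, after their values were seen, and are Trib3, Tcfl5, Trap1a, Bnip3, Tnni1, Hbb-bh1, Egln1, Fabp3, Igfbp1, Hba-x and Ccdc106. For Tcfl5 the log2 fold change was 1.49 in the double mutant pair and 2.04 (adjusted p = 0.0043) in Chd4-ECko against control, for Trap1a 1.85 and 1.65 (0.015), and for Tnni1 1.56 and 1.41 (0.035). Without the 3 libraries under 4% mitochondrial TPM the values in Chd4-ECko against control were 1.39 (0.036) for Tcfl5, 0.85 (0.19) for Trap1a and 0.50 (0.35) for Tnni1. Their choice for the same sign in both pairs made passing a test of the difference between the pairs less likely. None of the 11 passed that test. That does not show that the effects were equal: the difference for Tcfl5 was -0.55 (adjusted p = 0.28) and for Hba-x -1.91 (0.16). The 2 genes lower in both were Tmem265 (-0.83 and -0.99) and Sh2d4a (-0.23 and -0.36). Their adjusted p in Chd4-ECko against control was 0.048 and 0.042. With 1 library of that pair left out it ran from 0.033 to 0.13 for Tmem265 and from 0.0069 to 0.13 for Sh2d4a. Tnnt2 was not among the 11, with 0.86 in Chd4-ECko against control (adjusted p = 0.11), and the 2 pairs differed by 1.93 (adjusted p = 0.024), past the threshold in 13 of 18 other settings.

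The globins of the yolk sac lineage had the highest median of the lists, 1.72 over 3 genes. Hbb-bh1, an embryonic beta-type globin, was at 21.4, 30.6 and 45.2 TPM in Brg1/Chd4-ECdko and at 1.58, 6.76 and 2.28 TPM in Brg1-ECko (log2 fold change 2.99, s.e. 0.68, adjusted p = 0.236). Hba-x, the embryonic alpha-type globin, was at 19.4, 28.8 and 31.5 TPM against 12.8, 5.07 and 5.59 TPM (1.72, s.e. 0.68, adjusted p = 0.357). Neither overlapped between the groups. Hbb-y, the other embryonic beta-type globin, did overlap, at 13.3, 19.5 and 23.5 TPM against 16, 11.1 and 4.14 TPM (0.92, s.e. 0.54).

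The 3 embryonic globins were also higher in Chd4-ECko than in control, by 3.04, 3.63 and 4.01 on the log2 scale for Hbb-bh1, Hba-x and Hbb-y (adjusted p = 0.024, 0.012 and 0.0046). Hba-x was at 23.8, 208 and 162 TPM in Chd4-ECko, where the first library lay within the Brg1/Chd4-ECdko range and the other 2 were those under 4% mitochondrial TPM. Without the 3 libraries under that share the 3 log2 fold changes were 1.36, 1.70 and 2.85 (adjusted p = 0.25, 0.14 and 0.057). For Hbb-y the difference between the pairs was -3.09 on the log2 scale (adjusted p = 0.024), past the threshold in 11 of 17 other settings and not without the 3 libraries under 4% mitochondrial TPM (-1.80, adjusted p = 0.19). The adult globin Hbb-bs spread widely within both groups, from 659 to 2989 TPM in Brg1/Chd4-ECdko and from 410 to 1778 TPM in Brg1-ECko (0.63, s.e. 0.72), and reads of globin paralogs cannot be fully told apart by whole-gene counting. Red blood cell lysis was part of the isolation, and the number of primitive red cells left in each preparation was not measured.

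The Hba-x promoter is printed as the one embryonic globin window read here, at chr11:32276350-32276649 (plus strand, RefSeq on GRCm38.p6), with TATAAA and CACCC in capitals, both searched on both strands.
Hba-x: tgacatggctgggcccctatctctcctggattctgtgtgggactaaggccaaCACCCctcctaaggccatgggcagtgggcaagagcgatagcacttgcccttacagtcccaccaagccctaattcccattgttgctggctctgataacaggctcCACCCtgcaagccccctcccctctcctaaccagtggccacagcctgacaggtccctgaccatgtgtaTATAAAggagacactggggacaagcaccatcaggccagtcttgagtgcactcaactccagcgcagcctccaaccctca
TATAAA stood 28 bases before the start and CACCC at 198 and 95 bases before it. TATAAA occurs in 13.6% and CACCC in 57.5% of all windows.

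Genes of the low-oxygen response were read as a list. Of 23 tested genes of the glycolysis and hypoxia list, 21 had a log2 fold change above 0, as did 51.2% of all genes. At an unadjusted p under 0.05, 7 were higher and 1 lower (5.63% and 7.12% of all genes), and in 5 the 3 Brg1/Chd4-ECdko libraries lay above all Brg1-ECko libraries (16.9% of all genes). Bnip3, a mitophagy receptor induced by hypoxia, was at 132, 196 and 96.4 TPM against 74.2, 76.3 and 60.1 TPM (log2 fold change 0.95, s.e. 0.21, adjusted p = 0.236). Pdk1, which shuts pyruvate out of the mitochondrion, was at 84.1, 88.7 and 75.2 TPM against 56.8, 64.2 and 57.7 TPM (0.47, s.e. 0.10). Egln1, the oxygen sensor PHD2, was at 52.5, 64.0 and 47.3 TPM against 39.5, 41.1 and 41.3 TPM (0.41, s.e. 0.11). Ero1a (0.58), Vegfa (0.43), Hk2 (0.48) and Ankrd37 (0.78) lay the same way, whereas Ndrg1, another hypoxia target, was lower (-0.27).

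The list had a median of 0.26 in this pair and of 0.49 in Chd4-ECko against control, where 6 members passed the test, all higher (6.17% of all genes). That count was 12 without Chd4-ECko replicate 1, 1 or 2 without any other library of that pair, 2 to 4 without 1 library of the other groups, whose spread the model shares, and 1 with the Eif2s3y covariate or without the 3 libraries under 4% mitochondrial TPM. Bnip3l, the close relative of Bnip3, took the other course. It was higher in Brg1/Chd4-ECdko than in Brg1-ECko, at 103, 124 and 105 TPM against 79.3, 78.6 and 74.0 TPM (0.51, s.e. 0.11), but lower in Chd4-ECko than in control (-0.44, adjusted p = 0.033, and 0.0052 to 0.22 in other settings), and the 2 pairs differed by 0.95 (adjusted p = 0.0053). BNIP3L is also the receptor that clears mitochondria from maturing red cells. The Bnip3 promoter follows because it holds ACGTG, the core of the hypoxia response element, in capitals (chr7:138909457-138909756, minus strand, RefSeq on GRCm38.p6).
Bnip3: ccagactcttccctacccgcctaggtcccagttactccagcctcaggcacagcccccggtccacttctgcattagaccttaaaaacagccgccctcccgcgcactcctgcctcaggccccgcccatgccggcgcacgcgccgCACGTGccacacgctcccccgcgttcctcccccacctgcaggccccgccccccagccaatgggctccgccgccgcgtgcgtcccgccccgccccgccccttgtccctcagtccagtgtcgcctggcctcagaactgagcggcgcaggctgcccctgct
The 2 matches, 1 on each strand, overlap in a single palindrome about 108 bases before the start. ACGTG on either strand occurs in 19.6% of all windows.

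Several genes of the amino acid and stress response that ATF4 drives lay beside them. Trib3, a pseudokinase of that response, was at 6.27, 6.56 and 4.66 TPM in Brg1/Chd4-ECdko and at 1.84, 2.35 and 1.81 TPM in Brg1-ECko (log2 fold change 1.18, s.e. 0.20, adjusted p = 0.216). Stc2, stanniocalcin 2, was at 12.3, 12.2 and 11.1 TPM against 3.65, 7.32 and 4.03 TPM (1.15, s.e. 0.25). Stc2 is not on the ATF4 list counted below. Ddit4 (0.73) and Vldlr (0.68) were higher at an unadjusted p under 0.05. Over the list 4 of 18 tested members were higher and none lower at that threshold (5.63% and 7.12% of all genes), and the median was 0.05.

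Proteins that hepatoblasts secrete lay below 0. Of 22 tested apolipoprotein and plasma protein genes, 21 had a log2 fold change below 0, 15 were lower at an unadjusted p under 0.05 (7.12% of all genes) and none higher, and 10 did not overlap between the groups (14.6% of all genes were non-overlapping and lower). Their median was -0.47. Apoa1, the main protein of high-density lipoprotein, was at 2146, 1597 and 1876 TPM in Brg1/Chd4-ECdko and at 3216, 2781 and 3126 TPM in Brg1-ECko (-0.71, s.e. 0.12, adjusted p = 0.216). Apom, which carries sphingosine 1-phosphate in plasma, was at 672, 527 and 573 TPM against 1049, 779 and 892 TPM (-0.61, s.e. 0.13). Ttr, the thyroid hormone carrier transthyretin, was at 988, 717 and 771 TPM against 1311, 1107 and 1459 TPM (-0.65, s.e. 0.14). In each of these 3 genes the highest double-mutant library lay below the lowest Brg1-ECko library.

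Other liver products and enzymes were lower without overlap. Lcat, which esterifies lipoprotein cholesterol, was at 59.5, 52.3 and 61.1 TPM against 89.7, 73.7 and 92.8 TPM. Proc, the anticoagulant protein C, was at 88.1, 66.2 and 69.6 TPM against 118, 100 and 116 TPM. Gamt, of creatine synthesis, was at 32.2, 26.6 and 33.3 TPM against 50.2, 42.0 and 48.9 TPM, and Fdxr, which feeds electrons to mitochondrial P450 enzymes, at 32.9, 28.2 and 32.0 TPM against 50.6, 41.7 and 49.0 TPM. The log2 fold changes of these 4 ran from -0.60 to -0.56. Fkbp11 and Ssr2, of the secretory pathway, Prodh2 and Acaa2, mitochondrial enzymes, Igfals, the carrier of circulating IGF complexes, and the transporter Slc22a8 were also among the 15 lower genes of smallest p, at -0.95 to -0.40.

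The difference was not uniform over hepatoblast genes. Of 18 tested hepatoblast markers, 8 were lower (7.12% of all genes) and none higher at an unadjusted p under 0.05, with a median of -0.44. Afp, Apoa1 and Apoa2 are among the genes shared with the apolipoprotein and plasma protein list, so the counts are not separate evidence. Afp, the most abundant of them, was at 13655, 10613 and 11422 TPM against 16602, 10541 and 13985 TPM, which overlapped (-0.19, s.e. 0.18). The sum of the 18 was 25736 to 34425 TPM in Brg1/Chd4-ECdko and 29837 to 43753 TPM in Brg1-ECko. Lin28b, a gene of the early fetal state, stood at 0.66 (unadjusted p = 0.094). Whether hepatoblast number differed was not tested.

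**Figure D3:**
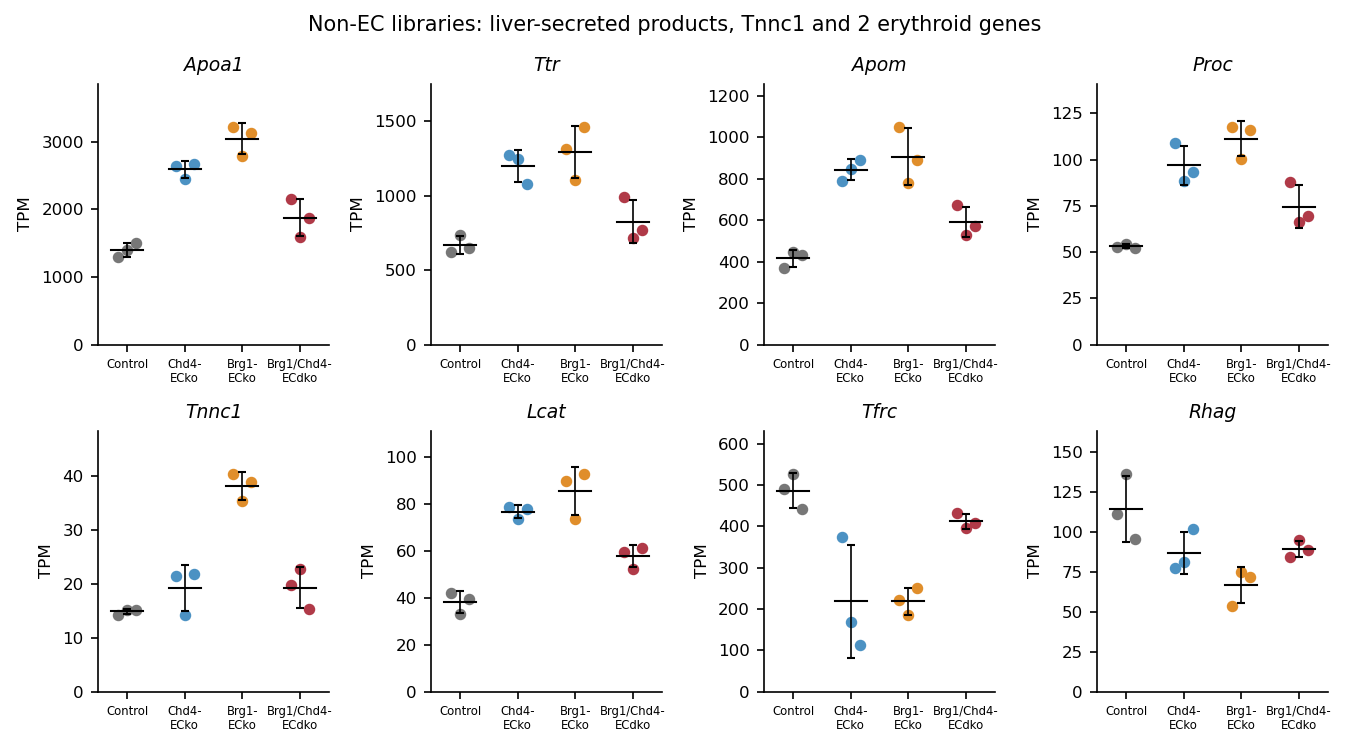
Transcript level (TPM, linear axes from 0) of 8 genes in the 12 non-EC libraries, points as single libraries with the mean and s.d. of 3. For Apoa1, Ttr, Apom, Proc, Tnnc1 and Lcat the Brg1/Chd4-ECdko libraries lie below the Brg1-ECko libraries; for Tfrc and Rhag they lie above Brg1-ECko.

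These genes had the opposite sign in Chd4-ECko against control. The lists read here share members, so their counts overlap. In Chd4-ECko against control, 17 of the 22 apolipoprotein and plasma protein genes and 13 of the 18 hepatoblast markers were higher at an adjusted p under 0.05, against 6.17% of all genes, with medians of 0.79 and 0.84. Over the settings run these counts were 13 to 17 of the 22 and 8 to 13 of the 18, the lowest of each without control replicate 1. The test of the difference was passed by 19 of the 22, all towards lower in Brg1/Chd4-ECdko (9.87% of all genes), and by 15 of the 18 in that direction and 1 in the other (10.3% of all genes). Over the settings run those towards lower were 15 to 21 of the 22 and 11 to 16 of the 18. For the 5 genes with the smallest p in that test the differences on the log2 scale were -1.60 for Apoa1, -1.55 for Lcat, -1.91 for Itih4, -1.49 for Pla2g12b and -1.63 for Apom, each with an adjusted p of 0.0027, and each passed in all 18 other settings run. Apoa1 levels make the pattern plain: the mean was 1395 TPM for control libraries, 2589 for Chd4-ECko, 3041 for Brg1-ECko and 1873 for Brg1/Chd4-ECdko. The mitochondrial share lay the other way round. It was 6.17% to 7.69% for control and 2.33% to 7.37% for Chd4-ECko libraries. With Brg1 deleted alone it was 3.04% to 5.51%, and with both deleted 6.43% to 6.65%. Without the 3 libraries under 4%, which left 1 Chd4-ECko library, Apoa1 differed between the pairs by -1.69. With TPM rescaled without mitochondrial, hemoglobin and Afp/Alb genes Apoa1 differed by -1.54 (adjusted p = 0.0056 by limma). Beyond these settings the part of that share in the liver values was not tested.

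Coagulation factors, also liver products, were read next. Of 17 tested coagulation genes 7 were lower at an unadjusted p under 0.05 (7.12% of all genes) and none higher, with a median of -0.30. F7, which starts clotting with tissue factor, was at 31.0, 34.8 and 34.0 TPM against 50.2, 38.5 and 49.7 TPM (-0.45, s.e. 0.12), and F10 at 203, 184 and 192 TPM against 296, 209 and 267 TPM (-0.40, s.e. 0.13). Fga, a fibrinogen chain, overlapped (-0.23, s.e. 0.17). Of 22 genes of cholesterol and lipid synthesis 2 were lower at that threshold, Mvk of the mevalonate pathway (-0.44) among them, and the median was -0.03.

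Extracellular matrix genes were read because the sinusoid wall lies between endothelium and hepatoblasts. Of 20 tested, 19 had a log2 fold change below 0 and 4 were lower at an unadjusted p under 0.05 (7.12% of all genes), in all 4 without overlap (14.6% of all genes), with a median of -0.26. Col4a1 and Col4a2, the basement membrane collagen chains, were at 8.32, 14.1 and 9.00 TPM against 16.3, 18.8 and 16.1 TPM (-0.69, s.e. 0.26) and at 4.51, 6.0 and 4.14 TPM against 8.17, 10.3 and 7.42 TPM (-0.71, s.e. 0.21). Sparc, a collagen-binding protein, was at 20.1, 20.1 and 17.4 TPM against 26.9, 22.6 and 27.98 TPM (-0.41, s.e. 0.14). Fn1, fibronectin, the most abundant of the list, overlapped (-0.26, s.e. 0.23).

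Red cell genes lay mostly above 0. Of 21 tested markers of definitive erythroid cells, 17 had a log2 fold change above 0 (51.2% of all genes), 6 were higher at an unadjusted p under 0.05 (5.63% of all genes) and none lower, and 7 were higher without overlap (16.9% of all genes). The median was 0.35. Tfrc, the transferrin receptor that brings iron to erythroblasts, was at 433, 397 and 407 TPM in Brg1/Chd4-ECdko and at 221, 186 and 250 TPM in Brg1-ECko (0.92, s.e. 0.32, adjusted p = 0.321). Rhag, of the Rh complex, was at 84.4, 94.5 and 88.2 TPM against 53.5, 74.6 and 71.7 TPM (0.43, s.e. 0.16). Epb42 (0.70) and Ermap (0.32) were also among the 6.

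Tfrc averaged 486 TPM over the control libraries and 219 TPM over those of Chd4-ECko, which ran from 114 to 374, with means of 219 for Brg1-ECko and 412 for Brg1/Chd4-ECdko. The 2 pairs differed for Tfrc by 2.25 on the log2 scale (adjusted p = 0.011), and by 1.18 without the 3 libraries under 4% mitochondrial TPM (0.0078). Of the 21 markers 5 passed that test, all towards higher in Brg1/Chd4-ECdko (10.3% of all genes), and 3 to 7 in the other settings run. Cd55, a complement regulator on blood cells, was at 15.2, 22.1 and 18.0 TPM against 9.35, 11.7 and 10.4 TPM (0.75, s.e. 0.16) and differed by 1.58 (adjusted p = 0.0039). The summed level of the erythroid markers overlapped, at 4686 to 7949 TPM in Brg1/Chd4-ECdko and 3044 to 6134 TPM in Brg1-ECko.

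Genes of dividing cells had a median near 0. Of 24 tested cell cycle genes, 2 were higher at an unadjusted p under 0.05 (5.63% of all genes), and the median was -0.02. Mcm4, a subunit of the replicative helicase, was at 217, 240 and 240 TPM against 179, 175 and 188 TPM (0.36, s.e. 0.10), and Pcna, the sliding clamp, at 498, 544 and 630 TPM against 480, 459 and 455 TPM (0.26, s.e. 0.11). Cdkn1c, an inhibitor of cell division, was at 531, 424 and 464 TPM against 732, 524 and 671 TPM, with overlap of 1 library (-0.43, s.e. 0.13).

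Markers of other cell types of the fetal liver were read in the same way. The 16 tested macrophage markers had a median of -0.42, against -0.44 for the hepatoblast markers, with 12 below 0 and 2 lower without overlap (14.6% of all genes), and none passed an unadjusted p of 0.05, with wide spread between libraries, as for Cd5l at 49.6, 10.9 and 34.6 TPM in Brg1/Chd4-ECdko and up to 76.7 TPM in Brg1-ECko. Their sum ran from 254 to 559 TPM in Brg1/Chd4-ECdko and from 409 to 706 TPM in Brg1-ECko. Medians were -0.29 for 15 neutrophil genes, -0.19 for 14 megakaryocyte genes, 0.23 for 13 stem and progenitor genes and -0.10 for 15 stellate and mesenchymal genes, each without a member at an unadjusted p under 0.05. The 9 tested endothelial markers had a median of -0.04. Several of these medians depended on single libraries. Without Brg1-ECko replicate 2 that of the megakaryocyte genes was 0.18 and that of the endothelial markers 0.18, without Brg1/Chd4-ECdko replicate 1 that of the stellate genes was 0.07, without Brg1/Chd4-ECdko replicate 2 that of the macrophage markers was -0.01, and without Brg1-ECko replicate 3 that of the neutrophil genes was -0.06.

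**Figure D4:**
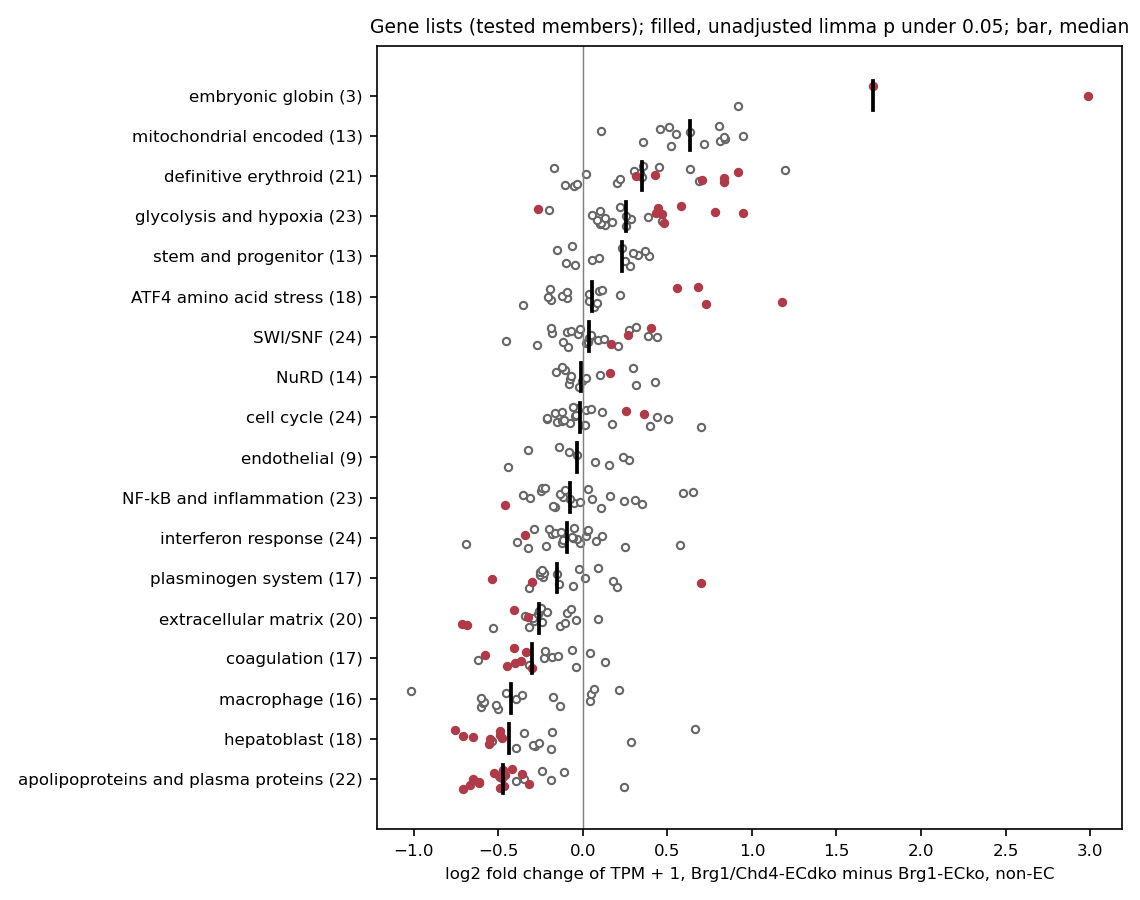
Log2 fold change of TPM + 1 between Brg1/Chd4-ECdko and Brg1-ECko in non-EC cells for every tested member of 18 gene lists (1 point a gene, number of tested members in parentheses, vertical bar at the median). Filled points have an unadjusted limma p under 0.05, none of them passed adjustment; medians run from -0.47 for apolipoproteins and plasma proteins to 1.72 for embryonic globins.

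The study's own pathways were examined gene by gene. Plaur, the urokinase receptor, was at 4.71, 3.89 and 4.40 TPM in Brg1/Chd4-ECdko and at 5.87, 4.5 and 4.39 TPM in Brg1-ECko (-0.14, s.e. 0.20). Plg, plasminogen, a liver product, was at 627, 440 and 516 TPM against 755, 510 and 722 TPM (-0.32, s.e. 0.17). The plasminogen activators Plau (0.20, s.e. 0.20) and Plat (-0.06, s.e. 0.18) overlapped between the groups. Among 17 tested genes of the system, Serpinf2, alpha 2-antiplasmin, was lower at 465, 379 and 411 TPM against 711, 495 and 633 TPM (-0.54, s.e. 0.13) and Serpine2 was lower (-0.30), each at an unadjusted p under 0.05 (7.12% of all genes).

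Icam1, the leukocyte adhesion molecule, was at 21.0, 16.7 and 19.2 TPM against 22.9, 25.1 and 23.1 TPM, without overlap (-0.31, s.e. 0.23, adjusted p = 0.531). Rela, the p65 subunit of NF-kB, was at 37.6, 35.5 and 35.4 TPM against 37.7, 43.5 and 41.9 TPM (-0.18, s.e. 0.12), and Vcam1 overlapped (-0.12, s.e. 0.22). Tnf, Il1b and Il6 stayed under 1 TPM in all 12 non-EC libraries and were not tested. Of 23 tested genes of NF-kB signalling and inflammation, 5 were lower and 1 higher without overlap (14.6% and 16.9% of all genes). Relb alone was past an unadjusted p of 0.05 (12.7% of all genes), at 1.75, 2.17 and 1.24 TPM against 2.92, 2.53 and 2.68 TPM (-0.46, s.e. 0.18), and the median was -0.08. The median of 24 interferon response genes was -0.09, with 1 higher and 3 lower without overlap (16.9% and 14.6% of all genes). Usp18 alone was past that threshold, and lower (-0.34, s.e. 0.15, 7.12% of all genes). The 1 higher was Ifih1, a sensor of double-stranded RNA, at 5.24, 4.47 and 3.96 TPM against 3.41, 2.64 and 2.20 TPM (0.57, s.e. 0.32).

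The 2 pairs differed for Icam1 by -1.02 (adjusted p = 0.048, past the threshold in 6 of 18 other settings) and for Plg by -1.08 (adjusted p = 0.017): in Chd4-ECko against control Icam1 stood at 0.71 (adjusted p = 0.067) and Plg at 0.76 (0.026), and both had negative values in Brg1/Chd4-ECdko against Brg1-ECko. Control replicate 2 had 7.26 TPM of Icam1 against 16.2 and 15.8 TPM in the other controls, and without it the value was 0.37 (adjusted p = 0.084) and the difference between the pairs -0.68 (0.025). For Plg the adjusted p in Chd4-ECko against control ran from 0.018 to 0.077 over the settings run. For Plaur that difference was 0.01 (adjusted p = 0.99).

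Subunits of the 2 remodelers had medians near 0. Of 24 tested SWI/SNF genes, 8 were higher and 3 lower without overlap (16.9% and 14.6% of all genes), and 3 were higher at an unadjusted p under 0.05 (5.63% of all genes): Phf10, a subunit of the PBAF form, at 142, 140 and 135 TPM against 95.2, 111 and 109 TPM (0.40, s.e. 0.08, adjusted p = 0.236), Brd7 (0.27, s.e. 0.08) and Smarcc1 (0.17, s.e. 0.07). Of 14 NuRD genes 3 were higher and 2 lower without overlap. The 3 were Mbd2, alone past that threshold (0.16, s.e. 0.07), the deacetylase Hdac2 at 113, 128 and 119 TPM against 93.9, 79.9 and 94.3 TPM (0.42, s.e. 0.21), and Gatad2b (0.30, s.e. 0.14). The medians were 0.04 and -0.01.

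The same pair of genotypes in LSECs offers a second fraction of these livers, and tests of the difference between fractions covered 13775 genes. None passed an adjusted p of 0.05 by limma, and 626 (4.54%) passed an unadjusted p of 0.05. LSECs and non-EC cells were separated from each other with beads, and the presence of Y-linked transcripts matched between libraries of the same genotype and number for 9 of 9 numbers in the genotypes that had libraries with and without them (all 3 controls had them), although no label says that a number marks 1 liver. Taking LSEC minus non-EC within each genotype and number, a test added after the data were seen, also gave 0 at an adjusted p of 0.05 and 931 at an unadjusted p of 0.05, and a replicate block gave 2. In LSECs Hbb-bh1 differed by 5.15 (adjusted p = 0.00029), Tcfl5 by 2.71 (2.1e-06), Trap1a by 2.20 (0.0014), Tnni3 by 2.21 (0.023), Fabp3 by 1.59 (0.023) and Pdk1 by 0.61 (0.038), in the same direction as in non-EC cells, and Tnnt2 by 1.30 (0.21). With 1 LSEC library of the pair left out, Hbb-bh1, Tcfl5 and Trap1a passed each time, whereas the adjusted p rose to 0.15 for Tnni3, 0.11 for Fabp3 and 0.20 for Pdk1. Apoa1 stood at -0.97 (adjusted p = 0.29), with 2132 TPM in LSEC Brg1-ECko replicate 1 against 814 and 669 TPM in the other 2. The hepatoblast markers of that library summed to 32382 TPM against 7518 and 8057 TPM, and without it Apoa1 stood at -0.46 and Tnnt2 at 0.88. Tfrc stood at -0.01, and at 0.30 without that library. The smallest p for a difference between fractions belonged to Septin1, at 1.53 in LSECs and 0.37 in non-EC cells (adjusted p = 0.093). Across genes the 2 fractions had a Pearson r of 0.33 and a Spearman rho of 0.25. Carry-over between the fractions was not tested beyond leaving that library out.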

How the data were processed

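RNA was sequenced from non-EC and LSEC fractions of livers of 4 genotypes, 3 libraries each. The authors separated the fractions with CD146 beads, lysed red cells, made poly-A libraries and mapped the reads to GRCm39 with CLC Genomics Workbench (version not given in the sources used here). The deposited values are TPM per gene, transcript abundances corrected for length and scaled within each library to a total of 1000000. TPM keep no read depth, so counting error is unknown, and abundant globin or liver transcripts lower every other value. The table's 8 mean columns were not used.

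TPM were transformed to log2(TPM + 1), so fold changes of low genes are understated. Genes at 1 TPM or more in at least 3 of the 12 non-EC libraries were fitted with limma 3.58.1 (R 4.3.3, trended moderation, all 12 libraries, no covariate), with Benjamini-Hochberg adjustment over all tested genes. The script was tested on simulated data. Exact permutation of 3 against 3 libraries cannot give a p below 0.1. Promoter windows came from a RefSeq table of GRCm38.p6 and gene positions from GRCm39.

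Members and gene lists were chosen with earlier results of these data known. Named were the 15 higher and 15 lower genes of smallest p, genes the study names, the most abundant member and the 3 of smallest p in each list, and the 5 of smallest p in each test of a difference. The troponins, the genes lying the same way in both pairs, neighbours of Tnnt2, and the other list members given were named after their values were seen. Some genes that this rule names are not reported here. Alternatives covered the pseudocount, filter, scaling, moderation, library weights, replicate block, an Eif2s3y covariate and each library left out.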

Additional observations from a re-analysis of the deposited data

Results flagged for a closer look

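In non-EC cells the difference between Brg1/Chd4-ECdko and Brg1-ECko was unlike that between Chd4-ECko and control for 2470 genes at an adjusted p under 0.05 by limma, and for 934 of them by more than 1 on the log2 scale. The pairs differ in Cre, in Brg1 dose and in the number of Chd4 alleles lost, which cannot be told apart from the Brg1 background. The differences (Brg1/Chd4-ECdko minus Brg1-ECko, less Chd4-ECko minus control) were negative for the liver products Apoa1 (-1.60), Lcat (-1.55), Itih4 (-1.91), Pla2g12b (-1.49), Apom (-1.63), Ttr (-1.49) and Plg (-1.08). They were also negative for Icam1 (-1.02), Tnnc1 (-1.28) and Hbb-y (-3.09). They were positive for the erythroid gene Tfrc (2.25), for Cd55 (1.58), for Bnip3l (0.95) and for Tnnt2 (1.93). Tnnt2 and Hbb-y had values above 0 in both pairs, larger in the double mutant for Tnnt2 and in Chd4-ECko for Hbb-y, whereas the liver genes and Tfrc had opposite signs in the 2 pairs. In 18 other settings (17 for Hbb-y) the threshold was passed in every one by the genes above except Tnnt2 (13), Hbb-y (11) and Icam1 (6). The share of mitochondrial transcripts and sex also differed between the groups. Their part was not tested beyond the settings that leave out the 3 libraries of lowest share, rescale TPM or add Eif2s3y. Rescaling, which set aside mitochondrial, hemoglobin and Afp/Alb genes, gave 898 genes in place of 934. With 3 libraries a group, no library was tested as an outlier.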

How the results depend on the processing

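The count of 0 genes past an adjusted p of 0.05 and a 2-fold difference between Brg1/Chd4-ECdko and Brg1-ECko became 1 (Tnnt2) with a replicate block, 51 with array weights and 36 with gene-by-gene array weights, the last chosen after the data were seen, and was 0 in every other setting run. Fitting only the 6 libraries compared gave 2939 genes at an unadjusted p under 0.05, and leaving out 1 of the 6 gave 754 to 1239. Whether replicate numbers pair the samples cannot be decided from 3 libraries a group. In the main pair deviations of same-numbered libraries correlated at 0.374, 0.133 and -0.022. There 1 of 3 Brg1-ECko and 2 of 3 Brg1/Chd4-ECdko libraries correlated best with their own number. Between Chd4-ECko and Brg1-ECko same-numbered libraries correlated at 0.504, 0.412 and -0.179. The count of 934 genes for which the 2 pairs differed was 528 with an Eif2s3y covariate, also added after seeing the data, 619 without the 3 libraries under 4% mitochondrial TPM (a choice made after seeing the data, in which the lone Chd4-ECko library is assumed to vary like the other groups) and 2470 with no fold threshold, and ran from 374 (without Brg1/Chd4-ECdko replicate 2) to 2040 (without Chd4-ECko replicate 1) when 1 library was left out. The count of 0 genes differing between LSECs and non-EC cells was 2 with quantile normalization and 2 with the replicate block, 0 within each genotype and number, and 0 to 2 with 1 library left out. The sign turned for Chd4 with quantile normalization (0.0403) and with rescaled TPM (0.0054), and with 1 library left out its values ran from -0.0684 to 0.0326. Those of Plat ran from -0.180 to 0.0112 and those of Vcam1 from -0.291 to 0.0202, above 0 for Chd4 and Vcam1 without Brg1-ECko replicate 1 or Brg1/Chd4-ECdko replicate 2 and for Plat without replicate 3 of either group. The cause of these moves was not tested. Of the gene fold changes recomputed for Brg1/Chd4-ECdko against Brg1-ECko, no other turned in the settings run. List medians moved more. Over the settings the megakaryocyte median ran from -0.41 to 0.18, the endothelial from -0.16 to 0.18, the stellate from -0.28 to 0.07, the SWI/SNF from -0.004 to 0.08, the NuRD from -0.03 to 0.03, the cell cycle from -0.06 to 0.04, the ATF4 from -0.004 to 0.17 and the cholesterol from -0.10 to 0.07, all of which turned sign, while the macrophage ran from -0.67 to -0.01, the neutrophil from -0.50 to -0.06 and the definitive erythroid from 0.09 to 0.54. Those of hepatoblast markers (-0.55 to -0.27), apolipoproteins and plasma proteins (-0.56 to -0.34), coagulation (-0.45 to -0.17), extracellular matrix (-0.44 to -0.13) and hypoxia (0.09 to 0.39) kept their sign. Values for Chd4-ECko against control and for LSECs without single libraries were added after the data were seen. TPM give no depth, so the precision of genes near 1 TPM, Trap1a among them, is unknown.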
